A study of Macaca mulatta with 12 samples.

Results

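C-MBC 1 is 1 of 12 B cell subtypes annotated by the depositors in the blood of rhesus macaques. Its members are the cells whose deposited identity, after removal of the cluster number, reads C-MBC 1. They numbered 1290 of 13849 cells in the table, or 1290 of the 13324 cells with a B cell subtype name, the other 525 being annotated as contamination. The animals were 6 healthy, unmanipulated juvenile rhesus macaques (Macaca mulatta) of Indian origin, 2 to 3 years old, with no treatment in any group. Batch 1 held the 2 males and batch 2 the 4 females, and sex and batch therefore cannot be told apart. From each animal a 5' single-cell gene expression library and a B cell receptor (BCR) library were made from blood mononuclear cells. Animals are called male 1 and 2 and female 1 to 4.

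Memory B cells arise when naive B cells meet antigen, divide and, often in germinal centres, mutate the variable regions of their immunoglobulin genes. Many also switch their heavy chain constant region from IgM and IgD to IgG, IgA or IgE, which changes what the antibody does and not what it binds. Classical memory cells of human blood carry CD27 and the complement receptor CR2 (CD21), whereas atypical memory cells lack them and carry the integrin CD11c (ITGAX), the transcription factor T-bet (TBX21) and FCRL5. EYA2 encodes a transcriptional co-activator with phosphatase activity, and MGLL encodes monoacylglycerol lipase, which degrades the endocannabinoid 2-arachidonoylglycerol.

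As examples of the receptors read from these cells, 6 heavy chain rearrangements are printed. They were picked by clone size or class and do not represent the population. Of 879 C-MBC 1 cells with 1 heavy chain, 35 were in clones of 2 or more cells. Each line gives the junction, or CDR3, of a clone that includes C-MBC 1 cells, 5′ to 3′, with the first and the last codon in capitals. A clone was defined as cells of the same animal with the same IGHV gene, IGHJ gene and heavy CDR3 nucleotides. The first 5 are the clones of 3 or more cells. The last is 1 of 2 clones with both an IgM and an IgG1 cell, chosen after its values were seen.
Male 2, IGHV4-143 and IGHJ5-1: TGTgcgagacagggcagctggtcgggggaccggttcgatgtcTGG
Male 1, IGHV4-160 and IGHJ3: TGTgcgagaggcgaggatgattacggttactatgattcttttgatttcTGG
Female 1, IGHV4-165 and IGHJ5-1: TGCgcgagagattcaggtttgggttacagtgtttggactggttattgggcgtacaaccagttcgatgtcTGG
Female 1, IGHV3-30 and IGHJ4: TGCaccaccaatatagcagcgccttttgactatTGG
Male 1, IGHV3-178 and IGHJ4: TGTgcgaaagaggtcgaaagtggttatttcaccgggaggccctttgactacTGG
Female 3, IGHV3-134 and IGHJ3: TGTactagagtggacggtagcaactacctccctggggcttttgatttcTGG

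The IGHV3-134 clone of female 3 joined an unswitched and a switched cell in 1 lineage. Its IGHM cell was annotated M-MBC 1 and its V region was identical to the animal's reference for that gene, described below, read from 23 unique molecular identifiers (UMIs). Its IGHG1 cell was annotated C-MBC 1 and differed by 1.75 bases per 100, read from 18 UMIs. The 285 bases of framework 1 to framework 3 are printed for both, with the 5 differing bases in capitals.
IGHM cell, M-MBC 1: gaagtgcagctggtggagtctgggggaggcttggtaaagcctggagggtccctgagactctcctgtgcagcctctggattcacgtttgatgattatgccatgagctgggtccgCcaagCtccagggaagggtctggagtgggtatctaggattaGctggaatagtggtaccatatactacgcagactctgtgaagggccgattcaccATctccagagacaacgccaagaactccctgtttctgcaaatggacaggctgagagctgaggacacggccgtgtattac
IGHG1 cell, C-MBC 1: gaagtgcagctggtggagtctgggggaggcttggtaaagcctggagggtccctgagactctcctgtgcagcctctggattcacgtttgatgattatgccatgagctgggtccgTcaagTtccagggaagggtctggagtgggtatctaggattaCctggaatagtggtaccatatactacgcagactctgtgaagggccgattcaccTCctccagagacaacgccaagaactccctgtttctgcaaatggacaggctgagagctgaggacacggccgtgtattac
The differences were C114T and C119T in framework 2, G155C in CDR2, and A208T and T209C in framework 3, with the unswitched base first and positions counted from 1 at the 5′ end of the V region. Both cells carried a light chain of IGLV3-25 and IGLJ2A, whose nucleotides were not identical.

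C-MBC 1 made up 6.46% of B cells in male 1, 9.03% in male 2, 11.3% in female 1, 13.0% in female 2, 10.1% in female 3 and 9.41% in female 4 (9.88% ± 2.21, SD, n = 6). The cells numbered 179, 242, 302, 207, 307 and 53 in the same order, so values of female 4 rest on the fewest cells. The median UMI count per C-MBC 1 cell ran from 4337 to 7507 across animals, and the median share of mitochondrial UMIs from 1.33% to 2.71%. A barcode sequence also found in another library was carried by 18 of the C-MBC 1 cells (193 of all cells), and no heavy chain rearrangement was found in 2 or more animals. Levels below are CPM, UMI counts summed over the C-MBC 1 cells of an animal and scaled to a common library size, as mean ± SD over 6 animals unless stated.

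The label was checked against marker genes. The B cell genes were present in every animal, with MS4A1 (CD20) at 1308 ± 327 CPM and CD79A, a signalling chain of the receptor, at 1270 ± 270 CPM. EYA2 was read at 130 CPM in the lowest animal, 234 at the median and 381 in the highest (231 ± 89.7). That was second among the 12 subtypes, after CD11c+ MBC 2 (503 CPM). C-MBC 2 ranked 6 of 12 (91.8), while M-MBC 1 had 12.3 and Naive B cells 1 had 0.941 CPM. MGLL was read at 30.6, 88.3 and 159 CPM (96.4 ± 52.1), the first of 12 by its mean. The spread over animals overlapped that of CD11c+ MBC 2 (72.5 CPM) and C-MBC 2 (69.9), so MGLL did not set C-MBC 1 apart from those neighbours.

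CR2 and ITGAX, which are used to part classical from atypical memory cells, were read against the label. CD27 was not listed among the genes of the deposited table. CR2 was low in C-MBC 1, at 2.89, 3.70 and 20.3 CPM (lowest, median, highest), against a mean of 42.8 in C-MBC 2 and 81.1 in Naive B cells 1. ITGAX stood at 226, 256 and 459 CPM, a mean of 315, above C-MBC 2 (66.5) and below CD11c+ MBC 1 (788) and CD11c+ MBC 2 (947). TNFRSF13B (TACI, a receptor for BAFF and APRIL) was at 248 ± 80.4 CPM and CD80, a ligand of CD28, at 76.9 ± 22.6, against 6.49 and 2.86 in Naive B cells 1. The M-MBC subtypes had similar levels, with CR2 means of 11.2 and 3.74 CPM and ITGAX means of 266 and 286 in M-MBC 1 and M-MBC 2. Low CR2 with intermediate ITGAX was therefore shared with the IgM memory subtypes, and the deposited name is used here only as a label.

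**Figure D1:**
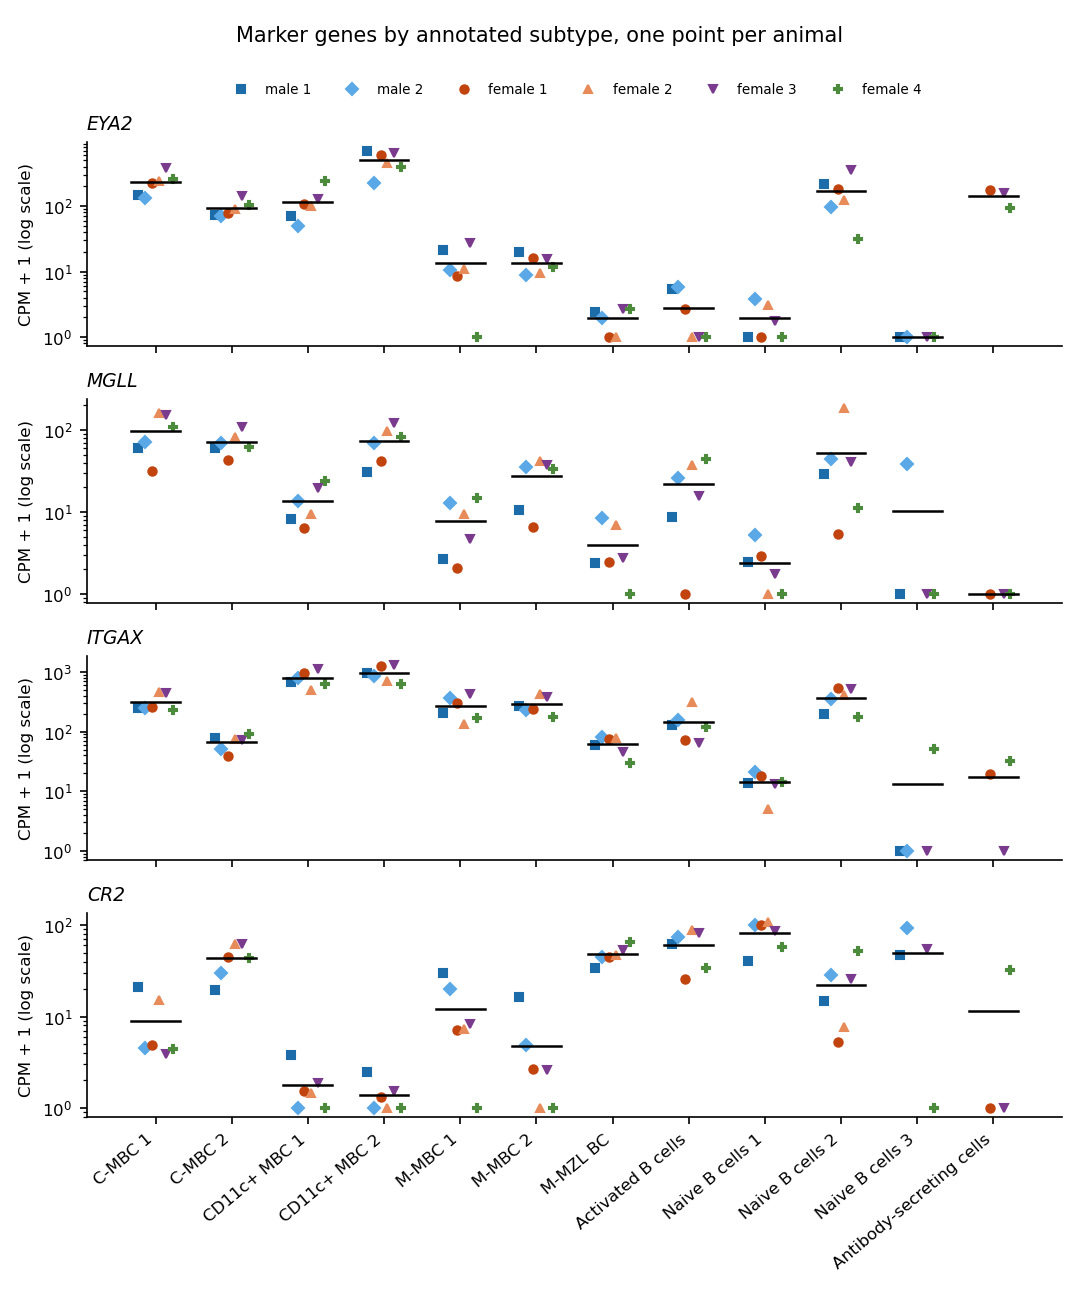
Levels of EYA2, MGLL, ITGAX and CR2 in the 12 annotated subtypes, as CPM + 1 on a log axis; each point is the summed cells of 1 animal and each bar the mean. C-MBC 1 has EYA2 second to CD11c+ MBC 2, the highest mean of MGLL, intermediate ITGAX and low CR2.

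RNA of other cell types was low in the C-MBC 1 sums. The 15 T cell markers added up to 73.5 to 212 CPM per animal, with 8 of the 15 under 10 CPM in all 6. The 9 monocyte markers added up to 69.8 to 198 CPM, and 4 of the 9 dendritic cell markers were at 0 in all animals. The 9 NK cell markers reached 511 CPM in female 4, mainly GNLY and GZMB, with a median of 23.3 CPM over the animals. Platelet and red cell markers added up to 32.4 to 342 CPM. The part of this RNA in the results was not tested.

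Against the mean of the other 11 subtypes, higher genes of C-MBC 1 included EYA2, MGLL, TNF, immediate early genes such as EGR1 and DUSP2, and memory genes such as S100A4 and CD86. Several of these levels were shared with single other subtypes, as given below. AEBP1, FCER2 and BACH2 were among the lower genes. The clusters were made from these same expression values, so the differences are a description with no test. A gene was counted as higher or lower where the log2 difference was 1 or more in size and had 1 direction in every animal. By that rule 359 of 9410 genes were higher (3.82%) and 123 lower (1.31%), with a median of 0.10 over all genes. With antibody-secreting cells and Naive B cells 2 and 3, which had few cells or little RNA, removed from the comparison set, the counts were 164 higher and 254 in all.

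Among the leading genes, EYA2 had a log2 difference of 3.95 ± 0.19 (SE) and MGLL of 3.35 ± 0.24. CCDC187 followed at 3.85 ± 0.28, with 8.36, 30.6 and 80.9 CPM in the lowest, median and highest animal. TNF, the inflammatory cytokine, was at 73.3, 177 and 367 CPM (201 ± 117), the highest mean of the 12 subtypes, against 38.4 in C-MBC 2 and 15.2 in CD11c+ MBC 2. The activated B cells came nearest for TNF (158 CPM), a gap smaller than the spread between animals. C15orf48, a subunit exchanged in the respiratory chain during inflammation, was at 80.1 ± 65.6 CPM, with 13.7 in the lowest and 183 in the highest animal. ALOX5AP, which presents arachidonate to 5-lipoxygenase, was at 94.6 ± 32.7 CPM, below CD11c+ MBC 2 (189). METRNL, a secreted factor, was at 367 ± 247 CPM, GPR153 at 28.0 ± 6.71 and PTCH1, the Hedgehog receptor, at 37.8 ± 24.8, each below CD11c+ MBC 2 (677, 89.9 and 117). The small nuclear RNA locus U1.118 was at 2.23 CPM in the lowest animal and 130 at the median, and its reads can be split among near-identical copies. ROR1 had its difference (3.22 ± 0.37) largely from male 1, at 261 CPM with the other animals at 3.42 to 15.5.

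Immediate early genes, which cells transcribe within minutes of a stimulus, stood out as a group. Of 22 measured members of the AP-1 and immediate early list, 16 were higher and 0 lower, with a median log2 difference of 1.39. EGR1, a zinc finger factor induced by receptor signalling, was at 162 CPM in the lowest animal, 1507 at the median and 2196 in the highest (log2 difference 2.94 ± 0.17). EGR2, at 222 ± 140 CPM, had a log2 difference of 2.64 ± 0.18, and DUSP2, a nuclear phosphatase that switches off MAP kinases, one of 2.39 ± 0.17. Female 2 was the lowest animal for EGR1 (162), DUSP2 (446), EGR2 (54.2) and ATF3 (25.3 CPM). Activated B cells were as high or higher for EGR1 (1397 CPM) and DUSP2 (3884 against 1704 CPM in C-MBC 1). FOS, the AP-1 subunit, had a log2 difference of 1.57 ± 0.21 and JUN, its partner, one of 1.61 ± 0.15. In that smaller comparison set 12 members were higher and 0 lower.

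Of 22 measured genes on the memory list, 15 were higher and 0 lower (median 1.46), with 9 of 21 in the smaller comparison set (median 0.95). S100A4, a calcium-binding protein of motile cells, was at 588, 1306 and 1577 CPM, against 43.0 in Naive B cells 1. CD86, the second ligand of CD28, was at 420, 618 and 741 CPM (log2 difference 2.06 ± 0.14), every animal above the Naive B cells 1 mean of 19.6. ZBTB32, a transcriptional repressor of memory cells, was at 182 ± 92.2 CPM. SSPN was at 42.3 ± 41.4 CPM and lower than in C-MBC 2 (86.9). GPR183, the oxysterol receptor that positions B cells in follicles, was at 1679 ± 564 CPM. The M-MBC 2 means of S100A4 (1054 CPM), CD86 (457), ZBTB32 (170) and GPR183 (1647) lay within the range over C-MBC 1 animals. These levels were therefore not particular to C-MBC 1.

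On the atypical list 9 of 15 measured genes were higher and 0 lower (median 1.35). ITGAM, the CD11b integrin chain, was at 27.1 ± 17.0 CPM and second among the subtypes, and DUSP4, a phosphatase of ERK, was first at 227 ± 96.1 CPM. FGR, a Src family kinase, was at 125 ± 40.8 CPM and TOX, a nuclear factor of chronically stimulated lymphocytes, at 211 ± 97.0. CXCR3, the receptor for interferon-induced chemokines, was at 37.7 ± 24.0 CPM, first by mean and level with C-MBC 2 (37.6).

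Survival and co-stimulation genes were higher in part. In the BCL2 family 3 of 13 were higher and 0 lower, MCL1 (1072 ± 265 CPM), BCL2A1 (736 ± 307) and BIK (40.4 ± 9.26). The first 2 block apoptosis and BIK promotes it. Of 16 TNF receptor and NF-kB genes, 3 were higher: TNFRSF13B, CD70 (75.2 ± 41.9 CPM, the ligand of CD27) and TRAF1 (49.1 ± 33.4), an adaptor of these receptors. Homing and adhesion genes had 6 of 18 higher and 0 lower, among them CADM1 (134 ± 55.8 CPM, an adhesion molecule) and CXCR5 (565 ± 86.3), the follicle-homing receptor. Of 14 antigen presentation genes the 2 higher ones were CD86 and CD80. Several of these levels were shared with other subtypes. CXCR5 means were as high in M-MBC 2 (578 CPM) and M-MBC 1 (568). The M-MBC 2 means of MCL1 (841), BCL2A1 (416), TNFRSF13B (226), CD70 (62.6) and CD80 (66.0) lay within the range over C-MBC 1 animals. Those of BIK (19.6), TRAF1 (10.2) and CADM1 (20.7) lay below it, while C-MBC 2 read 60.0 for BIK and 83.9 for CADM1.

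Few members of the other lists passed this rule. Over all 9410 genes 3.82% were higher and 1.31% lower, so counts of 0 or 1 are not read as a result about a list. Of the oxidative phosphorylation genes 0 of 21, and of the ribosomal protein genes 0 of 18, passed in either direction, although their medians were 0.43 and 0.39 against 0.10 over all genes. No member of the germinal centre, marginal zone, interferon, NK, monocyte, dendritic cell or platelet and red cell lists passed. Single members passed in the plasma and secretory list (SLAMF7 of 12), the heat shock list (DNAJB1 of 7), the cell cycle list (CENPF of 11) and the BCR signalling list (VAV3, lower, of 18). MGLL was higher and LPL lower among 8 lipid genes, and EYA2 was the higher one of 2 measured in the list of EYA2 relatives and partners. TRAT1 and LCK were the 2 lower genes of 15 T cell markers.

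Among the lower genes, AEBP1 was at 0 to 3.42 CPM, against 108 in M-MBC 1 and 105 in Naive B cells 1 (log2 difference -3.65 ± 0.79). C-MBC 2 was about as low, with a mean of 2.28 CPM. GAB1, an adaptor in receptor signalling, was at 1.13 ± 1.07 CPM against 89.3 in Naive B cells 1, and MPP7, a polarity scaffold, at 7.52 ± 3.52 against 211. GAB1 was also low in M-MBC 2 (2.66) and C-MBC 2 (3.74). PECAM1, an inhibitory adhesion receptor, was at 11.3 ± 6.64 CPM and FYN, a Src family kinase, at 16.8 ± 10.9, both the lowest means of 12 subtypes. On the naive list 1 of 18 was higher (CXCR5) and 4 lower: TCL1A, FCER2, BACH2 and RFLNB. FCER2 (CD23, the low-affinity IgE receptor) was at 0, 13.4 and 49.9 CPM against 528 in Naive B cells 1. BACH2, a repressor that holds back plasma cell fate, was at 54.6, 117 and 478 CPM against 1456. For FCER2 and BACH2 the C-MBC 1 means (16.9 and 176 CPM) were near those of M-MBC 2 (15.8 and 172). The C-MBC 2 means were higher (177 and 273). TCL1A was at 0 in 4 of the 6 animals, and its fold had no usable error.

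**Figure D2:**
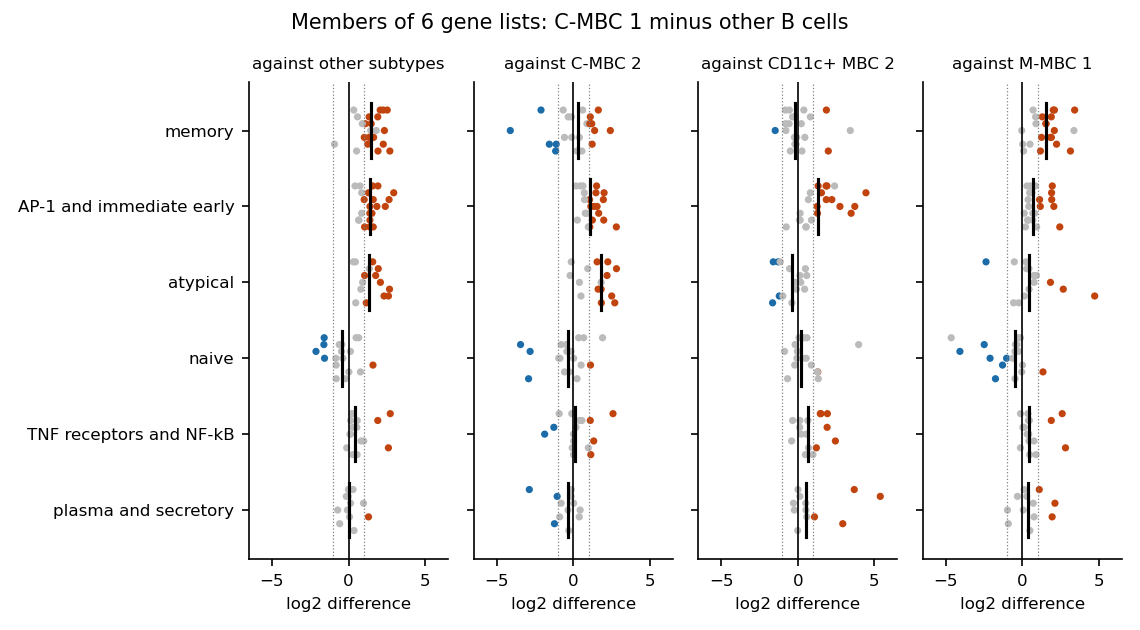
Log2 differences of C-MBC 1 for the measured members of 6 gene lists against the other subtypes, C-MBC 2, CD11c+ MBC 2 and M-MBC 1; red points were counted as higher, blue as lower and grey as neither, the black bar is the list's median and dotted lines mark a difference of 1. The AP-1 and immediate early list has counted members only on the higher side in all 4 contrasts, whereas the atypical list is higher against C-MBC 2 and lower against CD11c+ MBC 2.

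The subtypes nearest by name or class were then compared one by one. These contrasts share the C-MBC 1 sums, so they are given side by side. Against C-MBC 2, the other subtype with the C-MBC name, 339 genes were higher (3.60%) and 200 lower (2.13%). The atypical list had 9 of 15 higher and 0 lower (median 1.82). ITGAX differed by 2.26 ± 0.28 on the log2 scale, TBX21 by 2.82 ± 0.47, FCRL5 by 2.21 ± 0.19 and ZEB2, a partner of T-bet, by 1.82 ± 0.19. RGS16, a brake on chemokine receptor signalling, was at 295 ± 153 CPM against 13.0 ± 8.64, and EYA2 differed by 1.34 ± 0.22. The AP-1 and immediate early list had 13 of 22 higher and 0 lower (median 1.12).

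Genes lower in C-MBC 1 than in C-MBC 2 included 3 of the 12 on the plasma and secretory list. JCHAIN, which joins IgA and IgM into polymers, was at 66.3 ± 37.4 CPM against 446 ± 155 (log2 difference -2.86 ± 0.37). MZB1 and DERL3, both of the endoplasmic reticulum, were its other lower members. Of 18 homing and adhesion genes, 3 were lower, CCR9 and ITGA4 among them, and 3 were higher, CXCR5, ITGB2 and GPR183 (median -0.15). FCER2 was at 16.9 ± 18.4 CPM against 177 ± 119, and GPR155 at 14.7 ± 4.86 against 109 ± 18.7. On the memory list 7 genes were higher and 5 lower.

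Against CD11c+ MBC 2, 225 genes were higher (2.39%) and 160 lower (1.70%). Here 0 of 15 atypical genes were higher and 4 lower, with ITGAX at -1.60 ± 0.23 on the log2 scale and FGR at -1.21 ± 0.16, while TBX21, FCRL5 and ZEB2 did not pass the rule. EYA2 was lower by this rule, at -1.15 ± 0.18. The AP-1 and immediate early list had 12 of 22 higher and 0 lower (median 1.31), led by EGR1 at 1389 ± 688 CPM against 65.3 ± 45.4. TNF receptor and NF-kB genes had 6 of 16 higher, namely CD40, TNFRSF13C, NFKB2, NFKBIA, NFKBIE and TRAF1, and 0 lower. MZB1 (51.4 ± 26.8 against 2.43 ± 2.06 CPM) and CR1, a complement receptor (37.5 ± 12.9 against 1.88 ± 1.66), were also higher. KCNIP3, a calcium-binding protein, was at 21.0 ± 22.9 CPM against 174 ± 103, and UBASH3B, a phosphatase that dampens receptor signalling, at 13.6 ± 11.8 against 103 ± 65.2.

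Against M-MBC 1, a subtype of mainly unswitched cells, 236 genes were higher (2.51%) and 186 lower (1.98%). The memory list had 14 of 22 higher and 0 lower (median 1.54), and the AP-1 and immediate early list 7 higher and 0 lower (median 0.68). ITGAM differed by 4.72 ± 0.46 on the log2 scale, CADM1 by 4.55 ± 0.36, MGLL by 4.15 ± 0.32 and EYA2 by 4.07 ± 0.25. AEBP1 was lower by 6.03 ± 0.38 in size, and TTN, the titin gene, was at 7.80 ± 2.49 CPM against 78.4 ± 37.1. On the naive list 6 genes were lower, FCER2, BACH2, FOXP1, FCMR, SATB1 and RFLNB, and CCR7 was higher. ITGAX did not pass here, at 0.23 ± 0.23.

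The receptor libraries gave a readout from contigs and not from the expression table. Whether immunoglobulin genes of that table entered the authors' clustering is not given in the sources used here. A contig was found in 93.6% ± 4.06 of C-MBC 1 cells, and exactly 1 productive heavy chain in 879 cells. That was 67.6% ± 13.5 of C-MBC 1 cells, against 91.2% in Naive B cells 1 and 71.3% in C-MBC 2. A constant gene was read in 855, of which 643 were IGHG1 (75.2%, exact 95% interval 72.2 to 78.1%) and 166 IGHM (19.4%, 16.8 to 22.2%). The remainder were 16 IGHD, 13 IGHA, 13 IGHG2, 2 IGHG3, 1 IGHG4 and 1 IGHE cells. IGHG1 made up 97.6% of the 659 IgG cells. The intervals cover counting error only, since cells of an animal are not independent.

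Class switching was tested over animals with exact two-sided sign-flip permutation tests, 33 in all, adjusted by Benjamini-Hochberg. With 6 animals the smallest possible p is 0.03125, with 5 it is 0.0625. Of the 33 tests 8 were at p under 0.05, all at that smallest value, and 0 after adjustment (smallest adjusted p 0.129). Switched cells made up 57.3% (male 2) to 90.5% (female 3) of C-MBC 1, a mean of 78.5% ± 11.5. The mean was 80.3% in C-MBC 2, 68.5% in CD11c+ MBC 2 and 9.08% in M-MBC 1. The difference from C-MBC 2 (-1.88 ± 7.17 points, SD, from -14.6 to 4.10) was within the spread over animals (exact permutation p = 0.656, n = 6).

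Which class the cells had switched to differed more. IgG cells were 53.5% to 90.1% of C-MBC 1, 76.5% ± 12.2, against 50.6% ± 6.35 in C-MBC 2. C-MBC 1 was higher in 6 of 6 animals, by 14.4 to 32.5 points (exact permutation p = 0.03125, adjusted 0.129). IgA cells were 0 to 4.76% of C-MBC 1, with a mean of 1.78% ± 2.06, against 26.9% ± 3.10 in C-MBC 2, lower in 6 of 6 animals (exact permutation p = 0.03125, adjusted 0.129). Against CD11c+ MBC 2 the IgG share was higher in 5 of 6 animals (mean difference 8.21 ± 11.3 points, exact permutation p = 0.156). Kappa light chains were on 49.7% ± 8.48 of C-MBC 1 cells with 1 kind of light chain, and no kappa difference from another subtype reached p under 0.05.

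**Figure D3:**
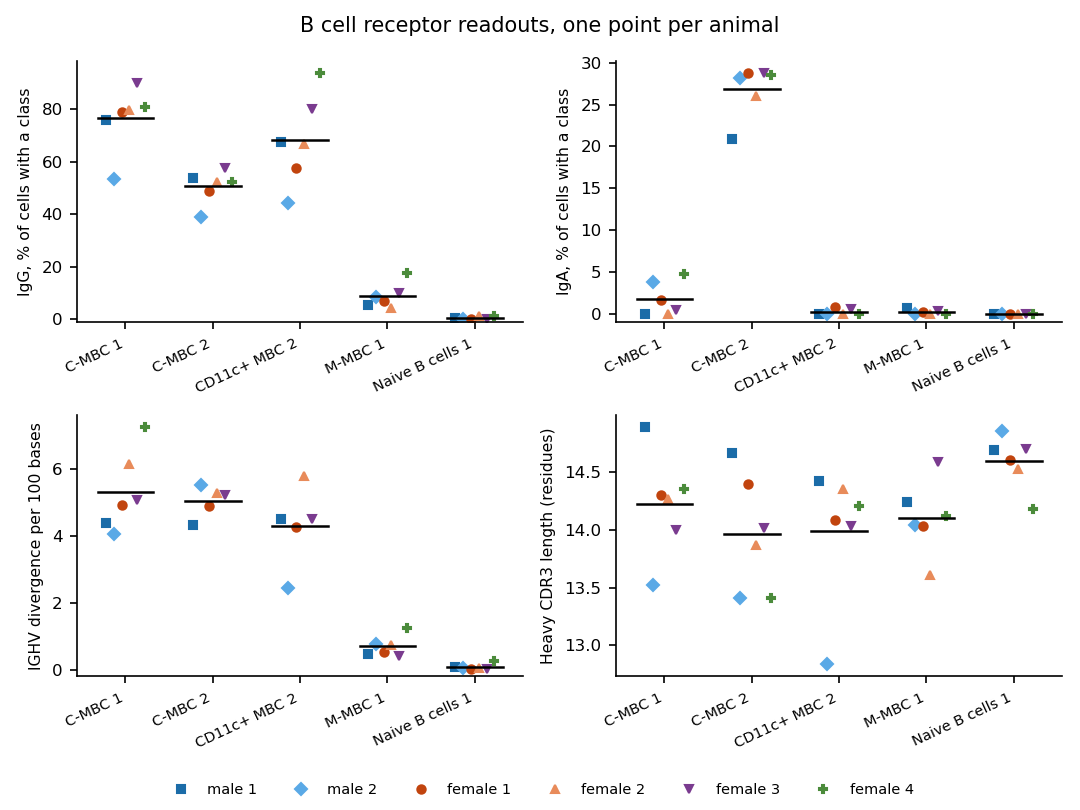
Share of IgG cells, share of IgA cells, V region divergence per 100 bases and heavy CDR3 length in amino acids, per animal (points) with the mean (bar), in C-MBC 1, C-MBC 2, CD11c+ MBC 2, M-MBC 1 and Naive B cells 1. IgA is 0 to 4.76% in C-MBC 1 and 26.9% on average in C-MBC 2, and divergence separates C-MBC 1 from M-MBC 1 and Naive B cells 1.

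C-MBC 1 receptors carried many V region differences. Divergence was counted per 100 bases from the nearest V sequence of the same animal and IGHV gene found in 3 or more clones of unswitched cells, which stands in for the germline allele. It was 4.07 to 7.25 in C-MBC 1 (5.31 ± 1.19, n = 6), the highest value resting on 11 cells of female 4. M-MBC 1 had 0.696 and Naive B cells 1 had 0.0833, and C-MBC 1 was above both in 6 of 6 animals (exact permutation p = 0.03125, adjusted 0.129). Unswitched cells of all subtypes, Naive B cells 1 and M-MBC 1 included, supplied the reference sequences. The low divergence of unswitched cells is therefore partly built in, and the permutation test does not account for that. Against C-MBC 2 the difference was -0.123 ± 0.835 (n = 5 animals, exact permutation p = 0.750). Among IgG cells alone, C-MBC 1 had 5.65 ± 0.879, C-MBC 2 had 5.46 ± 0.944 and CD11c+ MBC 2 had 5.45 ± 1.38 (n = 5), with differences of 0.197 ± 0.962 and 0.198 ± 1.00.

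Within C-MBC 1 the switched cells diverged more than the unswitched. They had 5.66 ± 0.876 against 2.60 ± 0.436 differences per 100 bases, higher in 5 of 5 animals by 2.62 to 3.94 (exact permutation p = 0.0625, the smallest possible with 5, adjusted 0.188). Only 1.05% of 571 switched cells had no difference from the reference, against 17.0% of 165 unswitched cells. Unswitched cells of M-MBC 1 had none in 72.8% and Naive B cells 1 in 96.2%. The unswitched members of C-MBC 1 were thus mostly mutated by this measure. The heavy CDR3 was 14.2 ± 0.450 amino acids long, against 14.6 in Naive B cells 1 (difference -0.368 ± 0.580, exact permutation p = 0.188).

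Of 869 clones seen among the 879 cells, 25 held 2 or more cells, 18 of them shared with another subtype. The largest was the IGHV4-143 clone of male 2, with 3 C-MBC 1 and 2 M-MBC 2 cells, all IGHM and at 3.47 differences per 100 bases. The IGHV4-160 clone of male 1 was all IGHG1 and held 1 C-MBC 1, 2 CD11c+ MBC 2 and 1 M-MBC 1 cell, at 2.81. IGHV4-165 in female 1 was also IGHG1, with 2 C-MBC 1 cells and 1 M-MBC 1 cell, at 5.26. The IGHM clones IGHV3-30 in female 1 (1 C-MBC 1 and 2 M-MBC 2 cells, 1.72) and IGHV3-178 in male 1 (1 C-MBC 1 and 2 CD11c+ MBC 1 cells, 0) were the others of 3 cells. The cells of each of these 5 clones shared an identical light chain.

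Shared clones had mostly IgM cells. Of the 18, 12 were all IGHM and 4 all IGHG1. IGHM was the minority class of C-MBC 1, but partner subtypes were often mainly unswitched. Switched cells averaged 12.4% in M-MBC 2, 9.08% in M-MBC 1 and 3.37% in M-MZL B cells. Of the 25 clones, 13 were all IGHM, 12 of them shared, and 10 all IGHG1, 4 of them shared. Lineages whose CDR3 nucleotides had diverged count as separate clones, and the class of shared clones was not tested. M-MBC 2 was the partner in 7 clones, CD11c+ MBC 2 in 4, CD11c+ MBC 1 and M-MBC 1 in 3 each, and activated and M-MZL B cells in 1 each. Of 24 clones with 2 or more light chains read, all 24 shared the light V and J genes and 19 an identical light chain. The second clone with both classes, IGHV3-59 in female 1, had an IGHM cell in C-MBC 1 and an IGHG1 cell in CD11c+ MBC 1. The V regions differed by T98A, and no light chain was read. On average 3.21% ± 2.58 of C-MBC 1 cells were in clones of 2 or more, from 0 in female 4 to 6.88% in male 2.

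IGHV use was not distinguishable from that of naive cells at this depth. Over numbers of clones, IGHV4 genes made up 48.7% ± 3.86 and IGHV3 genes 32.3% ± 3.41 of C-MBC 1. IGHV4-173 was the most used gene with 54 clones, followed by IGHV4-122 (37), IGHV3-182 (35), IGHV4-80 (33) and IGHV3-54 (32). None of 43 IGHV genes (0%) passed edgeR's quasi-likelihood test with Benjamini-Hochberg adjustment against Naive B cells 1, and 1 had an unadjusted p under 0.05. That gene was IGHV4-122, at 3.58% ± 1.66 of clones against 5.94% ± 3.96 (log2 difference -0.73, adjusted p = 0.828). Neighbouring IGHV genes are close in sequence, so single assignments are uncertain.

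Class also split gene expression inside C-MBC 1, a contrast defined by the receptor and not by the clusters. Switched cells (IgG, IgA or IgE) had more EYA2, TOX, PRKCH and SPAG16 RNA and less JCHAIN and TYROBP than unswitched cells of the same animal. The sums were of 60 to 201 switched and 19 to 67 unswitched cells in 5 animals, female 4 having only 6 unswitched cells. Of 4471 genes, edgeR's quasi-likelihood test, blocked by animal and adjusted by Benjamini-Hochberg, called 32 higher in switched cells (0.716%) and 25 lower (0.559%). At an unadjusted p under 0.05 there were 512 genes. DESeq2 called 19, and edgeR with no block for the animal called 0. Median UMIs per cell were 4450 to 7812 in switched and 4683 to 9148 in unswitched sums.

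EYA2 was higher in switched cells of every animal. It read 138, 177, 236, 308 and 383 CPM in switched cells of male 1, male 2, female 1, female 2 and female 3, against 101, 48.0, 61.6, 195 and 147 in their unswitched cells. The log2 difference was 1.30 ± 0.19 (adjusted p = 0.000217), and the ranges of the classes overlapped although each animal's switched value was the higher. MGLL differed by 0.72 ± 0.22 and was higher in 4 of 5 animals, without passing (adjusted p = 0.131). Unswitched C-MBC 1 cells still had an EYA2 mean of 103 ± 55.6 CPM (n = 5), between the 315 ± 182 (n = 5) of unswitched CD11c+ MBC 2 cells and the 53.3 ± 17.3 of unswitched CD11c+ MBC 1 cells, with 6.1 ± 7.1 in M-MBC 1. The higher switched mean was not particular to C-MBC 1. Switched cells read 532 CPM in CD11c+ MBC 2, 162 in CD11c+ MBC 1 and 35.7 in M-MBC 1, and in C-MBC 2 they read 88.1 against 0 in the unswitched cells of 3 animals. Whether the split differed in size between subtypes was not tested.

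TOX was at 187, 278, 379, 91.2 and 298 CPM in switched cells and 12.6, 59.1, 101, 17.7 and 84.1 in unswitched cells, in the same order of animals (log2 difference 2.08 ± 0.19, adjusted p = 2.18e-07). PRKCH, a protein kinase C isoform, was at 120 ± 55.8 against 28.4 ± 20.2 CPM (2.13 ± 0.27, adjusted p = 3.16e-05). AREG, the growth factor amphiregulin, was at 57.2 ± 23.2 against 9.47 ± 6.35 CPM (2.59 ± 0.43, adjusted p = 0.00102). SPAG16, a gene of the ciliary axoneme, was at 848 ± 391 against 377 ± 209 CPM (1.19 ± 0.12, adjusted p = 7.89e-07). PLBD1, U1.118 and MRPL39 completed the named genes, with log2 differences of 1.11, 1.08 and 0.98. All were higher in 5 of 5 animals. Higher switched means of TOX and SPAG16 were also read in C-MBC 2, both CD11c+ MBC and both M-MBC subtypes, so they were not particular to C-MBC 1. In M-MBC 2, TOX read 185 against 17.6 CPM and SPAG16 505 against 184. PRKCH went the other way in M-MBC 1 (53.9 against 65.2 CPM) and the same way in M-MBC 2 (49.2 against 24.1).

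Lower in switched cells was JCHAIN, at 35.5, 101, 78.9, 31.5 and 14.8 CPM against 63.2, 192, 344, 160 and 175 in unswitched cells (log2 difference -2.03 ± 0.24, adjusted p = 2.17e-05). JCHAIN was lower in each animal. Its means in switched and unswitched cells were 20.5 and 71.1 CPM in M-MBC 2, but 512 and 477 in C-MBC 2. TYROBP, a signalling adaptor of natural killer and myeloid receptors, was at 60.1 ± 43.0 against 186 ± 86.0 CPM (-1.65 ± 0.24, adjusted p = 0.000217). TYROBP is also on the list of 9 monocyte markers. Over all C-MBC 1 cells of an animal, CD14, S100A8, S100A9, VCAN, FCN1 and CSF1R each read at most 3.06 CPM, LYZ 6.76 to 56.7 and CST3 8.17 to 36.3. Split by class, the 9 markers, TYROBP included, added up to 102 to 358 CPM in unswitched and 57.6 to 171 in switched sums. TYROBP means over all cells were 515 CPM in M-MBC 2 and 219 in M-MBC 1, against 80.1 in C-MBC 1. ATRNL1 means were 280 CPM in M-MBC 2 and 66.8 in C-MBC 1. The source of the TYROBP difference was not tested. CALY (-1.79 ± 0.27), LYST, a lysosomal trafficking regulator (-1.37 ± 0.26), and ATRNL1 (-1.28 ± 0.20) were lower too, with smaller changes in TAF4B, SLC9A8 and PLK3.

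**Figure D4:**
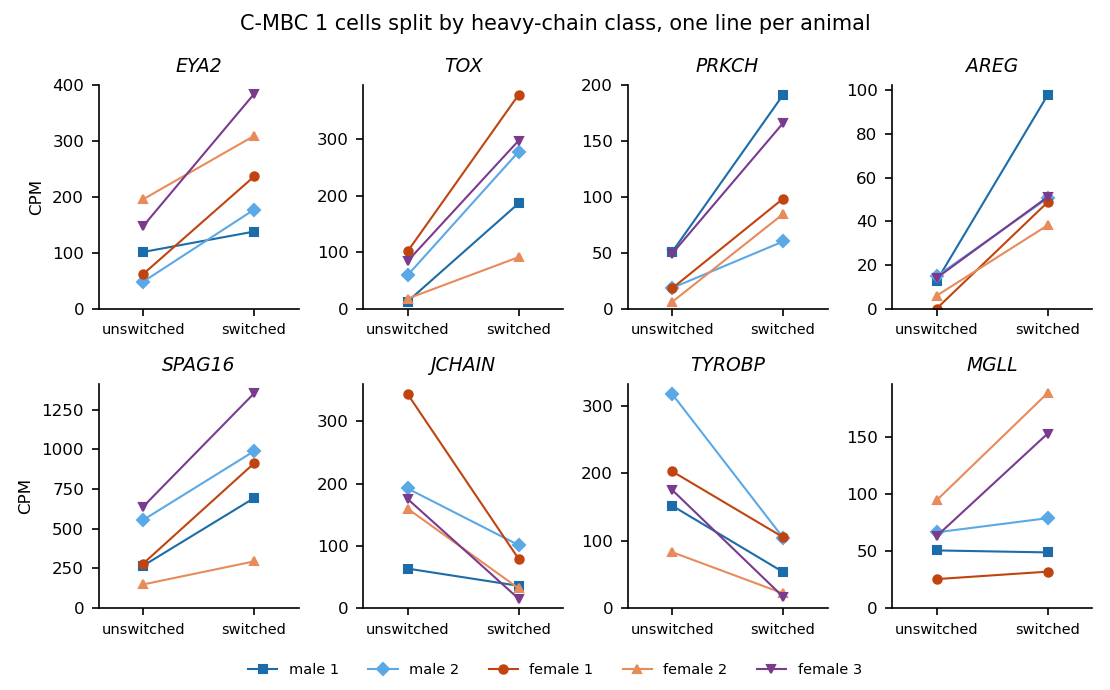
Levels in CPM of 8 genes in unswitched and switched C-MBC 1 cells, with a line for each of the 5 animals. EYA2, TOX, PRKCH, AREG and SPAG16 rise and JCHAIN and TYROBP fall toward switched cells in all 5; MGLL rises in 4 and did not pass the test.

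Among the lists, 7 of 21 immediate early genes were called higher in switched cells and 0 lower, at a median log2 difference of 0.36 against 0.00 over all genes. CD69, an early activation antigen, rose by 0.95 ± 0.13, JUN by 0.88 ± 0.15, EGR1 by 0.74 ± 0.18, FOS by 0.67 ± 0.10 and DUSP2 by 0.68 ± 0.13, the first 3 in 4 of 5 animals and the others in 5. DESeq2 called 4 of the list. TNF rose by 1.22 ± 0.20 and was higher in 3 of 5 animals. Of 11 naive genes, BACH2 (-0.77 ± 0.18), FOXP1 (-0.74 ± 0.15), a factor of quiescent B cells, and FCMR (-0.77 ± 0.19), an IgM receptor, fell and KLF2 rose by 0.29 ± 0.06. BCL2 fell by 0.68 ± 0.13 and CD79B by 0.55 ± 0.14. CRIP1 and S100A10 were the 2 of 17 memory genes called, both higher. No oxidative phosphorylation gene of 21 was called.

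Mutation load within switched C-MBC 1 cells went with few genes. Cells above the animal's median divergence were compared with those at or below it, in sums of 26 to 96 cells of 5 animals. Of 3517 genes, edgeR's quasi-likelihood test with Benjamini-Hochberg adjustment called 7 higher (0.199%) and 2 lower (0.0569%) in the more mutated cells. SPAG16 was at 893, 1171, 1235, 439 and 1751 CPM in more mutated cells and 515, 867, 653, 261 and 1065 in less mutated cells of male 1, male 2 and females 1 to 3 (0.73 ± 0.10, adjusted p = 9.74e-05). S100A11, another S100 protein, rose by 0.67 ± 0.12 and DLGAP1 by 0.62 ± 0.12, in 5 of 5 animals. FCRLA, an intracellular Fc receptor-like protein, fell by 1.15 ± 0.19 on the log2 scale and ZFP36L1, which promotes decay of mRNA, by 0.49 ± 0.10. EYA2 differed by 0.52 ± 0.14 and did not pass (adjusted p = 0.173). Without male 2 the count was 19, without female 3 it was 2, with no block for the animal 0, and DESeq2 called 1 gene.

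Cells with kappa light chains did not differ from those with lambda at the threshold. Of 5921 genes in 6 animals 0 were called by edgeR's quasi-likelihood test and 0 by DESeq2 (0% in each direction), with 253 at an unadjusted p under 0.05 and a smallest adjusted p of 0.615. NRGN (1.05 ± 0.25), SAMD4B (0.55 ± 0.13) and SPAG16 (0.28 ± 0.07) had the smallest p.

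Males and females differed in C-MBC 1 by 19 of 8314 genes in edgeR's quasi-likelihood test with Benjamini-Hochberg adjustment, 17 higher (0.204%) and 2 lower (0.0241%) in males. Since all males are of batch 1, no value within a batch could be had. Y-linked genes led, with RPS4Y1 at 1374 and 1411 CPM in the males and 0 in the 4 females. SERP1, a stabiliser of membrane proteins during stress, was at 36.1 and 27.2 CPM in males and 206 to 286 in females (-2.96 ± 0.31, adjusted p = 0.00218). The mitochondrial gene ATP6 was at 740 ± 43.6 against 2313 ± 395 CPM (-1.65, adjusted p = 0.0302), and CDK14, a cyclin-dependent kinase, at 95.9 ± 33.6 against 7.04 ± 10.3 (4.77 ± 0.70, adjusted p = 0.0204). Wide ranges over the animals were also read in other subtypes. SERP1 ran from 10.5 to 219 CPM in C-MBC 2 and 17.2 to 261 in M-MBC 2, and ATP6 from 635 to 2990 and 634 to 2683. CDK14 ran from 6.11 to 243 CPM in M-MBC 1 but only 0 to 21.1 in C-MBC 2. The sexes were not compared in those subtypes. EYA2 was at 137 and 119 CPM in males and 206 to 344 in females, without overlap, but did not pass (-0.99 ± 0.29, adjusted p = 0.224). Leaving out female 2 gave 226 calls, leaving out male 1 gave 6, male 2 gave 7 and female 1 gave 12.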

How the data were processed

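The authors deposited raw UMI counts of 22584 genes in 13849 cells, a cell table with their annotation and BCR contig tables with UMI counts. The percent of mitochondrial UMIs per cell was deposited by the authors. The submitters' processing notes name Cell Ranger 9.0.1, Seurat 5.0.1 and R 4.3.1. The build, annotation, immunoglobulin reference and strand of counting are not given in the sources used here, so overlapping genes, antisense genes and near-identical copies are uncertain. All cells carry the authors' call Singlet, and no doublet caller was run. The members, gene lists and tests were chosen with earlier results of these data known.

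Unnamed identifiers (5813, 14.9% of UMIs) and 23 immunoglobulin genes (0.186%) stayed out of library sizes and tests. Counts were summed per animal and subtype or class, with sums under 10 cells left out and libraries of 20178 to 4257244 counts. Fits used edgeR 4.0.16 (filterByExpr, TMM, quasi-likelihood F test, Benjamini-Hochberg) in R 4.3.3, and were blocked by animal except for the sexes. Compared sums come from the same animal, which is the source of the pairing. CPM within a contrast use that contrast's own scaling. DESeq2 1.42.0 was an alternative. Receptor tests used Python 3.11.15 and scipy 1.17.1. The expression fits were also run on simulated counts, whose spread was not matched to each contrast. The IGHV and receptor tests were not simulated, and no result here rests on that run.

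Named genes were EYA2 and MGLL, then per direction up to 12 genes (6 for like subtypes, 8 for tested contrasts) with the largest log2 difference, 1 direction in every animal and a mean log2 CPM of at least 4, and up to 4 members of each of 24 lists. Genes with an SE above 1 or undetermined were passed over, a condition added after values were seen. Marker genes and called list members are also named. FOS, JUN, TNF, BCL2 and CD79B in switched cells, and CCR9, ITGA4 and DERL3 against C-MBC 2, were named as list members or called genes after their values were seen. A gene that the rule names against C-MBC 2 is not reported here.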

Additional observations from a re-analysis of the deposited data

Results flagged for a closer look

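Of 32 named genes checked over the 6 animals, 3 had 1 animal far from the others. Chance gives such a gap in about 1 in 20 groups of normally distributed values. CPM were not checked for that distribution, so the rate may differ here, and some such gaps are likely among 32 genes. ROR1 was at 261 CPM in C-MBC 1 cells of male 1 and at 3.42 to 15.5 in the others. RBMS1 was at 34.2 CPM in female 4, the animal with 53 cells, and at 4.62 to 12.02 in the others. FER was at 13.1 CPM in female 1 and at 3.42 to 6.68 in the others. The causes were not tested.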

How the results depend on the processing

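Alternatives for the comparison with the other subtypes gave 467 genes with DESeq2's size factors, 649 with no filter on low counts, 498 with no replicate block, 328 without Naive B cells 2 and 3, 530 with unnamed and immunoglobulin genes kept and 537 to 649 leaving out 1 animal, against 482. With antibody-secreting cells also left out, an alternative chosen after seeing the data, it was 254. The pairing by animal decides the within-subtype calls: with no replicate block, switched against unswitched cells gave 0 in place of 57 and mutation load 0 in place of 9. Class gave 19 with DESeq2, 143 with no filter, 35 with unnamed and immunoglobulin genes kept, and 31 to 47 leaving out 1 animal (36 without male 1, 31 without female 1, 32 without female 3). Kappa against lambda gave 4 with no filter, 18 with unnamed and immunoglobulin genes kept, all 18 of them such genes, and 0 to 2 leaving out 1 animal. Mutation load gave 1 with DESeq2, 23 with no filter, 5 with a minimum of 5 cells, also chosen after seeing the data, and 2 to 19 leaving out 1 animal. The sexes gave 72 with DESeq2, 169 with no filter and 6 to 226 leaving out 1 animal.

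TOX, EYA2, SPAG16, PLBD1, JCHAIN and TYROBP were called in 11 of 12 settings for class, all but that with no block. Other named genes held less well. PLK3 was called in 7 and MRPL39 in 6 of 12 settings, U1.118 and TAF4B in 3 of 11 and SLC9A8 in 1 of 11. For mutation load, SPAG16 was called in 10 of 11 settings, S100A11 and FCRLA in 8, DLGAP1 in 7 and ZFP36L1 in 3. DESeq2 called only SPAG16 of these. Receptor differences that changed sign were all far from the threshold. Kappa against CD11c+ MBC 2 (2.03 points) became -0.916 over clones and -2.46 with 3 or more UMIs. Clone share against M-MBC 1 (-0.00293) became 0.183 with 3 or more UMIs. The other sign changes came from leaving out 1 animal. Kappa against M-MBC 1 (-1.01) ran from -4.78 to 2.80 (2.80 without female 1, 0.709 without female 2). Clone share ran from -1.08 to 2.35 against M-MBC 1 (0.0507 without female 3, 2.35 without female 4), from -2.54 to 0.713 against C-MBC 2 (-1.68, positive without female 4) and from -0.403 to 1.32 against CD11c+ MBC 2 (0.599, negative without male 2). The switched share against C-MBC 2 (-1.88) ran from -3.07 to 0.659 and divergence against C-MBC 2 (-0.123) from -0.371 to 0.207, both positive without male 2. IgG divergence ran from -0.211 to 0.436 against CD11c+ MBC 2 (0.198, negative without male 2) and from -0.0165 to 0.601 against C-MBC 2 (0.197, negative without female 2). IgG CDR3 length against CD11c+ MBC 2 (0.0149) ran from -0.0135 to 0.0312, negative without female 4. The causes were not tested. The share of B cells was 9.26 to 10.6% leaving out 1 animal. Depth limits the unswitched sums, with as few as 19 cells and 82889 counts, and no receptor test over 6 animals can give a p below 0.03125.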
